A study of Homo sapiens with 15 samples.

Results

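The genes described here are SULF1 and 9 other genes of heparan sulfate proteoglycans, 10 of the 17138 genes listed in the tables of 2 human cell lines. They were taken by gene symbol as the extracellular sulfatases SULF1 and SULF2, the glypicans GPC1, GPC4 and GPC6, the syndecans SDC1, SDC2 and SDC4, and the chain enzymes EXT1 and NDST1. The set was chosen for SULF1, whose level in fibroblasts was higher with one tumor partner than with the other, so the SULF1 values in MRC5 are given as a description, with no test. Only the glypicans and syndecans are proteoglycan core proteins. The other 4 genes code for enzymes that build or edit the sugar chain.

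MRC5 are human fibroblasts of the lung, H69 a neuroendocrine small cell lung cancer (SCLC) line and H196 a non-neuroendocrine SCLC line. MRC5 cells were cultured alone (MRC5_Mo), with H69 (MRC5_CoH69) or with H196 (MRC5_CoH196), and H196 cells alone (H196_Mo) or with MRC5 (H196_Co), with 3 RNA-seq libraries per group and 15 in all. Partner cells sat on a transwell insert with 0.4-µm pores for 7 days, so each library was made from one line only, and no H69 library was analysed here. No group carries a named drug or genetic change, each line is a single line, and the labels do not say whether the 3 libraries came from separate cultures, so p-values measure the spread between these libraries.

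Heparan sulfate is a sulfated sugar chain that is attached to core proteins at the cell surface and in the matrix. Its pattern of sulfate groups sets how well it holds growth factors such as FGFs and Wnts and presents them to their receptors. The chain is polymerised and sulfated in the Golgi, and SULF1 and SULF2 then remove 6-O-sulfate groups from it outside the cell. In lung stroma, fibroblasts are a main source of both matrix proteoglycans and these sulfatases.

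Library totals ran from 18476890 to 19170560 counts for MRC5 and from 16073597 to 17358349 for H196. Levels are given as FPKM, a fragment count divided by gene length and library size, which allows genes to be set side by side. Fold changes are edgeR log2 fold changes on counts scaled by TMM, with Benjamini-Hochberg adjusted p-values over all tested genes of a fit. A gene is called a differentially expressed gene (DEG), and written as risen or fallen, where the adjusted p was under 0.05 and the absolute log2 fold change above 0.58. The scale matters for MRC5_CoH196, whose TMM factors were 0.916 to 0.941 against 1.03 to 1.05 in the other MRC5 libraries. There all genes had a median log2 fold change against MRC5_Mo of -0.003 on the TMM scale and -0.18 on log2(FPKM + 0.1).

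Fibroblast markers fitted the MRC5 label, while H196, non-neuroendocrine by its description, held some neuroendocrine markers. All 10 fibroblast markers were above 3 counts in every MRC5 group, with a summed level of 26444 to 29441 CPM in MRC5_Mo, 30417 to 31857 in MRC5_CoH69 and 14836 to 15300 in MRC5_CoH196. COL1A1 and COL1A2 made up most of it, with means of 14162 and 9051 CPM in MRC5_Mo and 4771 and 6157 in MRC5_CoH196. Of the 10 markers, 1 rose and 2 fell in MRC5_CoH196, with a median log2 fold change of 0.14. In H196 the sum of the fibroblast markers was 68.2 to 86.2 CPM, and COL1A2 held 0 or 1 counts in each of the 6 libraries. Most of that sum was FBLN1, with a mean of 66.5 CPM in H196_Mo and 79.6 in H196_Co. Of the 10 neuroendocrine markers, 5 are listed in the MRC5 table, with a sum of 432 to 450 CPM in MRC5_Mo, 416 to 428 in MRC5_CoH69 and 345 to 373 in MRC5_CoH196. Almost all of it was UCHL1, while CHGB and SYP were at 0.20 FPKM or less in every MRC5 library. H196 held CHGB at 17.49 to 19.97 FPKM and lacked NCAM1 above 3 counts, and its 8 listed neuroendocrine markers summed to 485 to 599 CPM. The 10 epithelial markers summed to 124 to 132 CPM in MRC5_Mo, 149 to 167 in MRC5_CoH69, 147 to 160 in MRC5_CoH196, 210 to 215 in H196_Mo and 249 to 288 in H196_Co, with CDH1 and ELF3 at or under 3 counts in every MRC5 library and CLDN3 at 0 counts in MRC5_Mo and at 5 to 7 in MRC5_CoH196. In H196 CDH1 was at 0 counts alone and at 1 to 4 in co-culture. The part of these marker levels in the results below was not tested.

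SULF1 left aside, 0 of the 9 other genes were DEGs in MRC5_CoH69 compared to MRC5_Mo by edgeR, where 0.421% of the 12819 tested genes rose and 0.133% fell. DESeq2 also called 0, and 5 of the 9 had an unadjusted p under 0.05. In MRC5_CoH196, 1 of the 9 rose and 0 fell, against 17.2% and 14.7% of all tested genes. An adjusted p under 0.05 at any fold was reached by 8 of the 9 there, and by 74.3% of all tested genes. The median log2 fold change of the 9 was -0.11 in MRC5_CoH196 and 0.07 in MRC5_CoH69, beside -0.003 and -3.4e-05 over all genes. Directly between the co-cultures 0 of the 9 were DEGs by edgeR or DESeq2, 6 had an unadjusted p under 0.05, and 13.1% of all genes were higher and 15.2% lower with H69. The 3 contrasts share libraries and are not independent of each other.

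SULF1 (GRCh38.p13, chromosome 8, 69466624 to 69660912) codes for one of the 2 secreted 6-O-endosulfatases of heparan sulfate. In MRC5_Mo its FPKM was 3.50, 3.56 and 2.72. With H69 as partner it was 12.1, 11.7 and 10.2, and with H196 it was 6.50, 6.07 and 6.73. All 3 MRC5 groups stood apart without overlap, in the order MRC5_CoH69, MRC5_CoH196, MRC5_Mo. The corresponding counts were 245 to 322 in MRC5_Mo, 942 to 1106 in MRC5_CoH69 and 546 to 624 in MRC5_CoH196. In these bulk libraries fewer cells with a transcript and less RNA per cell cannot be told apart.

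On the count scale SULF1 was 3.54-fold higher in MRC5_CoH69 than in MRC5_Mo (log2 fold change 1.82, SE 0.08) and 2.21-fold higher in MRC5_CoH196 (1.15, SE 0.08). Set directly against each other, MRC5_CoH69 was 1.60-fold above MRC5_CoH196 (0.68, SE 0.07). H196 cells had next to no SULF1. The H196_Co libraries held 0, 0 and 0 counts and the H196_Mo libraries 1, 0 and 1, below the floor of 3 counts, so no fold is given and SULF1 was not tested in H196. Those 3 counts correspond to 0.173 to 0.187 CPM in the H196 libraries, and cover counting error only.

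SULF2 (chromosome 20, 47656348 to 47787479), the other endosulfatase, was the lowest of the 10 genes in MRC5. Its FPKM was 1.98, 1.52 and 1.20 in MRC5_Mo, 1.87, 1.80 and 1.92 in MRC5_CoH69, and 1.28, 1.20 and 1.16 in MRC5_CoH196, from 79 to 131 counts per library. The 2 co-cultures did not overlap, but both overlapped MRC5_Mo, whose libraries spread most. Against MRC5_Mo the log2 fold change was 0.26 (SE 0.14, adjusted p = 0.30) in MRC5_CoH69 and -0.19 (SE 0.15, adjusted p = 0.26) in MRC5_CoH196, and without MRC5_Mo replicate 1 the latter was 0.02. Between the co-cultures it was 0.45 higher with H69 (SE 0.14, adjusted p = 0.0075), under the fold limit for a DEG. SULF2 is not among the genes of the H196 table analysed here.

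SULF1 and SULF2 were thus both higher with H69 than with H196, and only SULF1 lay apart from MRC5_Mo in both co-cultures. SULF1 was chosen for its values in MRC5, so the ratio of the 2 genes is given as a description. The ratio of SULF1 to SULF2 FPKM was 2.13 ± 0.31 (SD, n = 3) in MRC5_Mo, 6.09 ± 0.66 in MRC5_CoH69 and 5.31 ± 0.42 in MRC5_CoH196. The 2 co-culture ranges, 5.33 to 6.48 and 5.06 to 5.80, overlapped, and both lay above the 1.77 to 2.34 of MRC5_Mo.

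**Figure D1:**
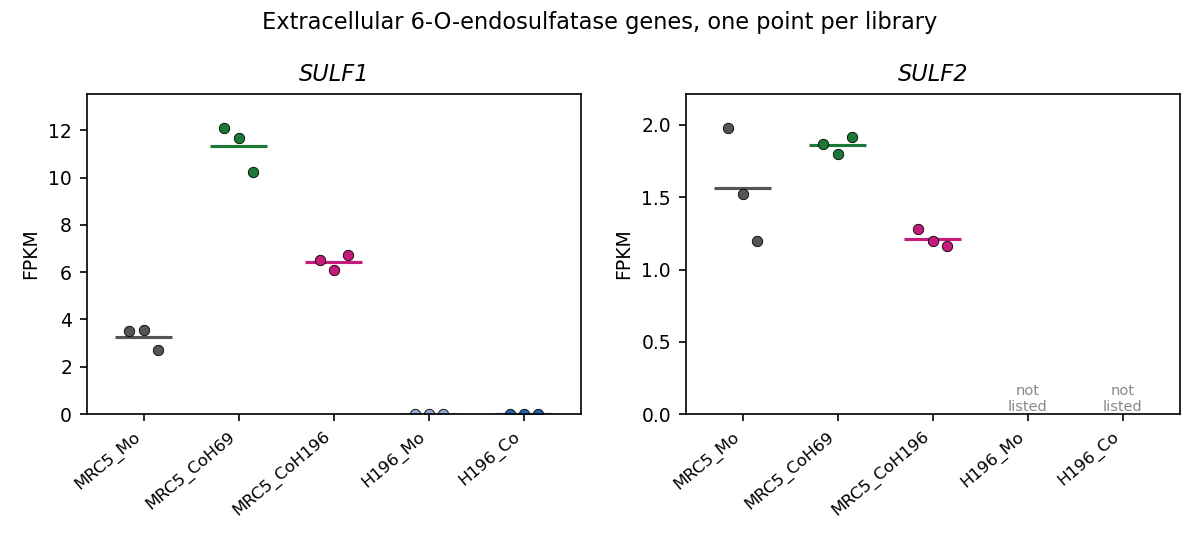
FPKM of SULF1 (left) and SULF2 (right) in each library, with groups on the horizontal axis, points for the 3 libraries of a group and a line at their mean. SULF1 lies highest in MRC5_CoH69 (10.2 to 12.1), between in MRC5_CoH196 and at 0.02 or less in H196, while SULF2 stays between 1.16 and 1.98 in MRC5.

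Glypicans are core proteins held to the outer cell membrane by a lipid anchor, and carry heparan sulfate chains close to the membrane. GPC1, the most abundant of the 10 genes by FPKM in MRC5_Mo, was lower with H196 as partner. GPC4 went the other way and was the one gene of the set, SULF1 left aside, that became a DEG in a fibroblast co-culture on the TMM scale.

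GPC4 (chromosome X, 133300103 to 133415489) had an FPKM of 4.20, 3.57 and 3.32 in MRC5_Mo, 5.07, 4.81 and 4.84 in MRC5_CoH69 and 6.37, 5.92 and 5.70 in MRC5_CoH196. All 3 groups were separate, in the order MRC5_CoH196, MRC5_CoH69, MRC5_Mo, in which the co-cultures stand the other way round than for SULF1. GPC4 rose 1.83-fold in MRC5_CoH196 (log2 fold change 0.87, SE 0.08, adjusted p = 1.8e-10). In MRC5_CoH69 the log2 fold change was 0.42 (SE 0.08, adjusted p = 0.0011), and between the co-cultures -0.45 (SE 0.07, adjusted p = 6.1e-06), both under the fold limit. On log2(FPKM + 1) the change in MRC5_CoH196 was 0.578, just under the limit of 0.58, and GPC4 was not called. H196 libraries held 4 to 11 counts of GPC4, 0.05 to 0.14 FPKM, far below every MRC5 library, and GPC4 did not pass the count filter there.

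GPC1 (chromosome 2, 240435663 to 240468076) stood at 185, 188 and 192 FPKM in MRC5_Mo, at 178, 178 and 162 in MRC5_CoH69 and at 134, 132 and 134 in MRC5_CoH196. No group overlapped another, and MRC5_CoH196 was lowest. The log2 fold change was -0.32 (SE 0.04, adjusted p = 4.3e-07) in MRC5_CoH196 and -0.11 (SE 0.04, adjusted p = 0.16) in MRC5_CoH69. GPC6 (chromosome 13, 93220315 to 94408020) was at 9.88, 9.23 and 8.95 FPKM in MRC5_Mo, 9.75, 9.51 and 10.1 in MRC5_CoH69 and 7.05, 8.16 and 7.56 in MRC5_CoH196. Here MRC5_Mo and MRC5_CoH69 overlapped and MRC5_CoH196 lay below both, with a log2 fold change of -0.15 against MRC5_Mo (SE 0.05, adjusted p = 0.014). The GPC4 to GPC1 ratio of FPKM went from 0.0197 ± 0.0028 (SD, n = 3) in MRC5_Mo to 0.0284 ± 0.0014 in MRC5_CoH69 and 0.0450 ± 0.0024 in MRC5_CoH196, with no overlap between the 3 groups.

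Syndecans are core proteins that span the membrane and carry heparan sulfate on an outer domain that proteases can shed. None of the 3 in the set was a DEG in MRC5 on the TMM scale. SDC1 (chromosome 2, 20200797 to 20225475), best known from epithelia and plasma cells, was at 39.98, 41.26 and 42.94 FPKM in MRC5_Mo, 35.9, 39.1 and 34.5 in MRC5_CoH69 and 27.3, 27.9 and 26.8 in MRC5_CoH196. The groups did not overlap, and their order was that of GPC1. Its log2 fold change was -0.42 in MRC5_CoH196 (SE 0.05, adjusted p = 3.8e-08) and -0.17 in MRC5_CoH69 (SE 0.05, adjusted p = 0.034). On log2(FPKM + 1) and log2(FPKM + 0.1) the first of these became -0.583 and -0.60, past the fold limit.

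SDC2 (chromosome 8, 96493601 to 96611790) is a syndecan known from mesenchymal cells, and was the lowest of the set's syndecans in each MRC5 group. Its FPKM was 19.9, 21.5 and 18.8 in MRC5_Mo, 23.83, 23.25 and 23.98 in MRC5_CoH69 and 20.1, 22.3 and 20.4 in MRC5_CoH196. MRC5_CoH69 lay above the other groups, which overlapped each other. On the TMM scale the log2 fold changes were nearly equal, 0.25 with H69 (SE 0.05, adjusted p = 0.0030) and 0.23 with H196 (SE 0.05, adjusted p = 3.0e-04), and the latter was 0.06 on log2(FPKM + 1).

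SDC4 (chromosome 20, 45325288 to 45348424), a syndecan of focal adhesions, was at 134, 126 and 126 FPKM in MRC5_Mo, 133, 131 and 135 in MRC5_CoH69 and 133, 138 and 141 in MRC5_CoH196. By FPKM all 3 groups overlapped their neighbours. The TMM-scaled log2 fold change was 0.27 with H196 (SE 0.04, adjusted p = 3.6e-06), against 0.09 on log2(FPKM + 1), and 0.06 with H69 (SE 0.04, adjusted p = 0.45). Within the syndecans, the SDC1 to SDC4 ratio of FPKM was 0.323 ± 0.022 (SD, n = 3) in MRC5_Mo, 0.274 ± 0.021 in MRC5_CoH69 and 0.199 ± 0.008 in MRC5_CoH196.

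EXT1 and NDST1 act on the chain itself. EXT1 (chromosome 8, 117794490 to 118111826), a subunit of the polymerase that extends heparan sulfate, was at 37.0, 36.0 and 35.1 FPKM in MRC5_Mo, 36.88, 38.13 and 39.95 in MRC5_CoH69 and 34.7, 35.9 and 35.1 in MRC5_CoH196. Each group overlapped its neighbour in level. Its log2 fold change with H196 was 0.14 on the TMM scale (SE 0.04, adjusted p = 0.0035) and -0.03 on both log2(FPKM) scales, so its sign depends on the scaling, and with H69 it was 0.10 (SE 0.04, adjusted p = 0.14).

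NDST1 (chromosome 5, 150486331 to 150558211), which replaces acetyl by sulfate groups on the nascent chain and so opens it to the later sulfotransferases, was at 40.6, 40.5 and 43.8 FPKM in MRC5_Mo, 40.4, 39.9 and 39.3 in MRC5_CoH69 and 34.4, 33.4 and 34.8 in MRC5_CoH196. By FPKM MRC5_CoH196 lay lowest. The log2 fold change with H196 was -0.11 (SE 0.04, adjusted p = 0.027) and with H69 -0.05 (SE 0.04, adjusted p = 0.61).

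**Figure D2:**
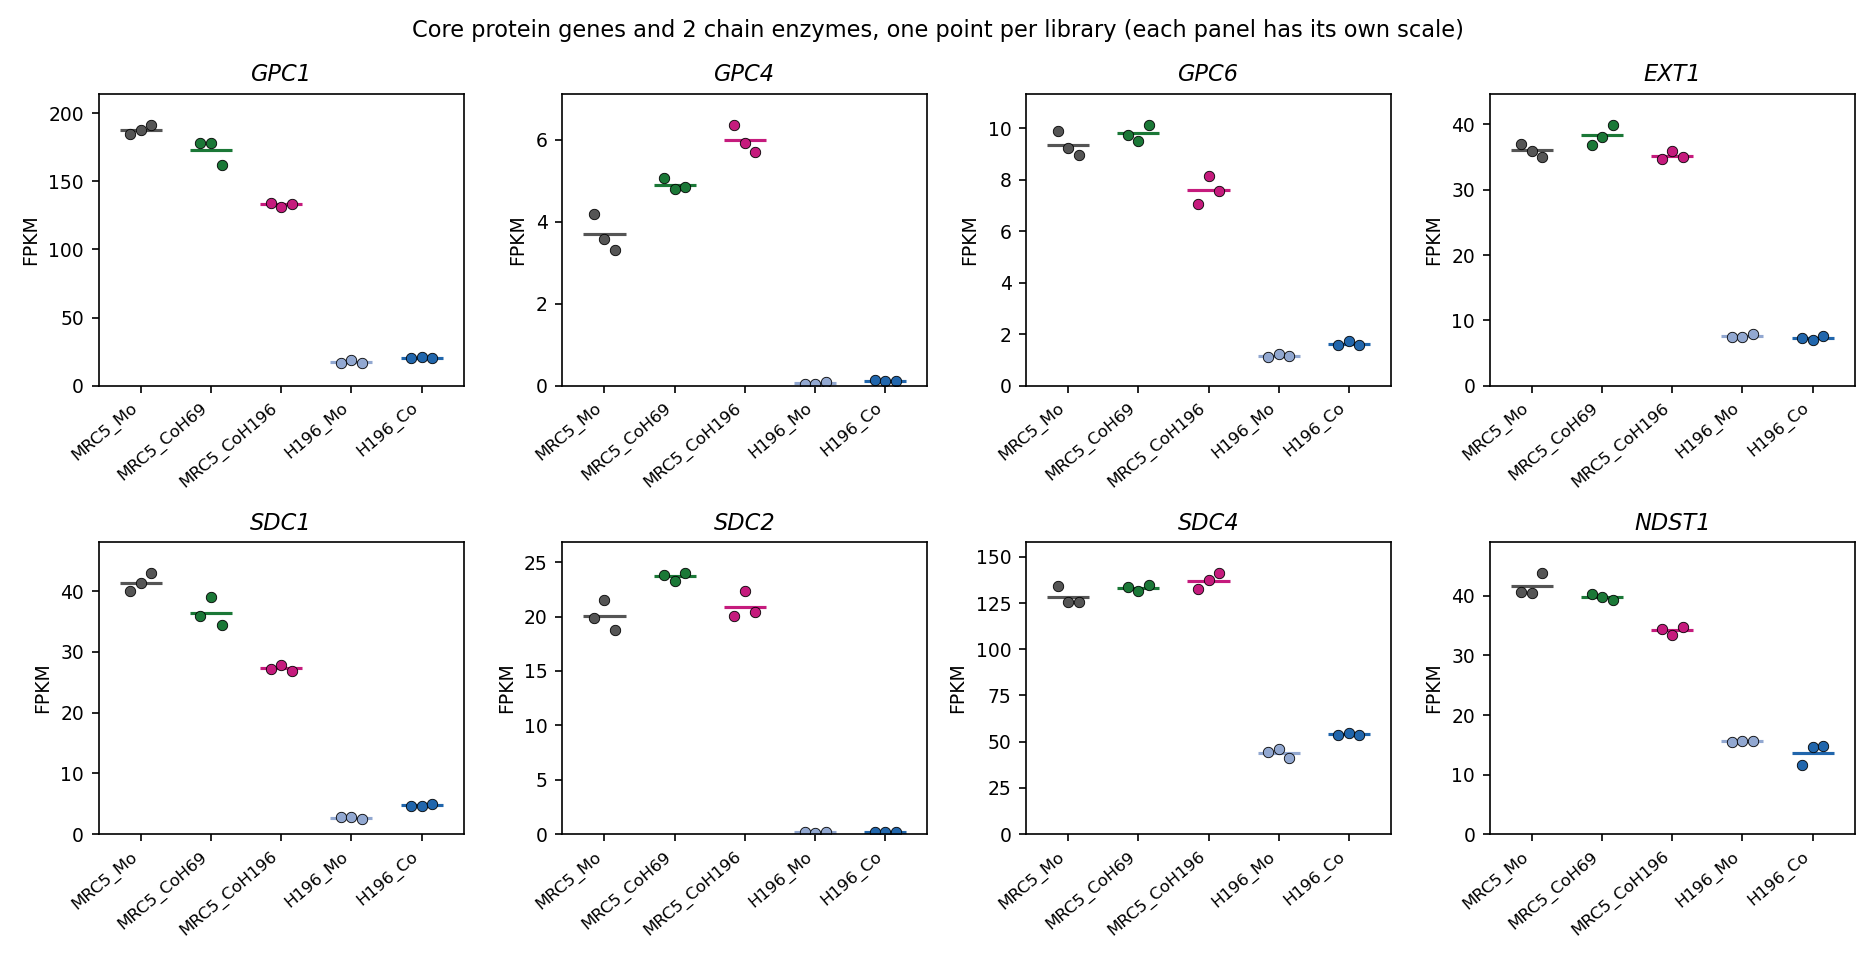
FPKM of the 8 core protein and chain enzyme genes, one panel per gene with its own scale from 0, groups on the horizontal axis, points for the 3 libraries of each group and a line at their mean. GPC1, SDC1 and NDST1 are lowest among the MRC5 groups in MRC5_CoH196, GPC4 is highest there, and each of the 8 genes is lower in H196 than in MRC5.

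H196 cells carried less of the transcripts of this set. In H196_Mo all 9 listed genes had lower FPKM than in any MRC5 library. The 2 tables were normalized separately, and these levels were not tested against each other. The share of all genes lower in H196 was not counted. Some other heparan sulfate genes went the other way, such as GPC2, with a mean of 5.27 FPKM in H196_Mo and 1.89 in MRC5_Mo. TGFBR3, with 8.24 and 1.77, and HPSE, with 1.52 and 0.12, did as well. The H196 FPKM was 41.4 to 54.5 for SDC4, 16.2 to 20.7 for GPC1, 11.7 to 15.7 for NDST1, 7.04 to 7.96 for EXT1, 2.45 to 4.95 for SDC1 and 1.11 to 1.74 for GPC6. SDC2, with 4 to 10 counts per library, was near the limit of detection, as were GPC4 and SULF1.

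Of the 10 genes, 6 could be tested in H196, and 1 of these rose and 0 fell, against 3.26% and 0.601% of the 12806 tested genes. DESeq2 likewise called 1, and the median log2 fold change of the 6 was 0.36, beside -0.0015 over all genes.

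With MRC5 as partner, SDC1 rose in H196. Its FPKM was 2.75, 2.74 and 2.45 in H196_Mo and 4.62, 4.66 and 4.95 in H196_Co, from 123 to 137 and 226 to 245 counts. The groups were well apart, a 1.89-fold rise (log2 fold change 0.92, SE 0.11, adjusted p = 3.7e-06). GPC6 went from 1.11, 1.21 and 1.13 FPKM to 1.57, 1.74 and 1.57, a log2 fold change of 0.56 (SE 0.11, adjusted p = 0.0017) that fell short of the fold limit. GPC1 was at 16.2, 18.4 and 16.6 FPKM alone and at 20.6, 20.7 and 20.6 in co-culture (log2 fold change 0.34, SE 0.07, adjusted p = 0.0028). SDC4 was at 44.5, 46.2 and 41.4 alone and at 53.8, 54.5 and 53.7 in co-culture (0.37, SE 0.07, adjusted p = 8.5e-04). In all 4 core protein genes each co-cultured library lay above each library of H196 alone. The share of all tested genes with such a gap was not counted. With 3 against 3 libraries such a gap cannot by itself go below p = 0.1 in an exact permutation test.

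The chain enzymes did not share these higher levels. EXT1 was at 7.46, 7.41 and 7.96 FPKM in H196_Mo and 7.29, 7.04 and 7.53 in H196_Co (log2 fold change 0.01, SE 0.07, adjusted p = 0.92, and -0.06 on both log2(FPKM) scales). NDST1 was at 15.5, 15.7 and 15.7 FPKM alone and at 11.7, 14.6 and 14.7 in co-culture (-0.12, SE 0.08, adjusted p = 0.30). Of the fibroblast markers, COL1A1 held 17 to 29 counts in H196_Mo and 28 to 35 in H196_Co, and DCN 8 to 14 and 7 to 13. COL1A2 and COL3A1 held at most 1 count in any H196 library. FBLN1 stood apart, with 1083 to 1236 counts in H196_Mo and 1294 to 1354 in H196_Co. The part of these markers in the values above was not tested.

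MRC5_CoH196 and H196_Co pair the same lines with the sequenced line in the well each time, so they come from separate co-cultures. In a joint fit of 12 libraries, the response of MRC5 to H196 minus that of H196 to MRC5 was tested for 8 genes of the set. SDC1 differed by -1.37 (log2, SE 0.11, adjusted p = 9.8e-11), with a negative change in MRC5 and a positive one in H196. GPC6 differed by -0.73 (SE 0.12, adjusted p = 1.4e-05) and GPC1 by -0.69 (SE 0.08, adjusted p = 1.7e-07), with the same pair of signs. SDC4 had positive changes in both lines, and its difference was -0.13 (SE 0.08, adjusted p = 0.19). The differences of GPC4 (-0.15, SE 0.39), SDC2 (0.02, SE 0.47), EXT1 (0.11, SE 0.08) and NDST1 (-0.01, SE 0.09) had adjusted p from 0.28 to 0.98, the signs for GPC4, SDC2 and NDST1 changed under other settings, and those of GPC4 and SDC2 rest on at most 11 counts per H196 library. In all, 0 of the 8 were called higher and 3 lower, against 12.2% and 12.3% of the 13531 genes tested.

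**Figure D3:**
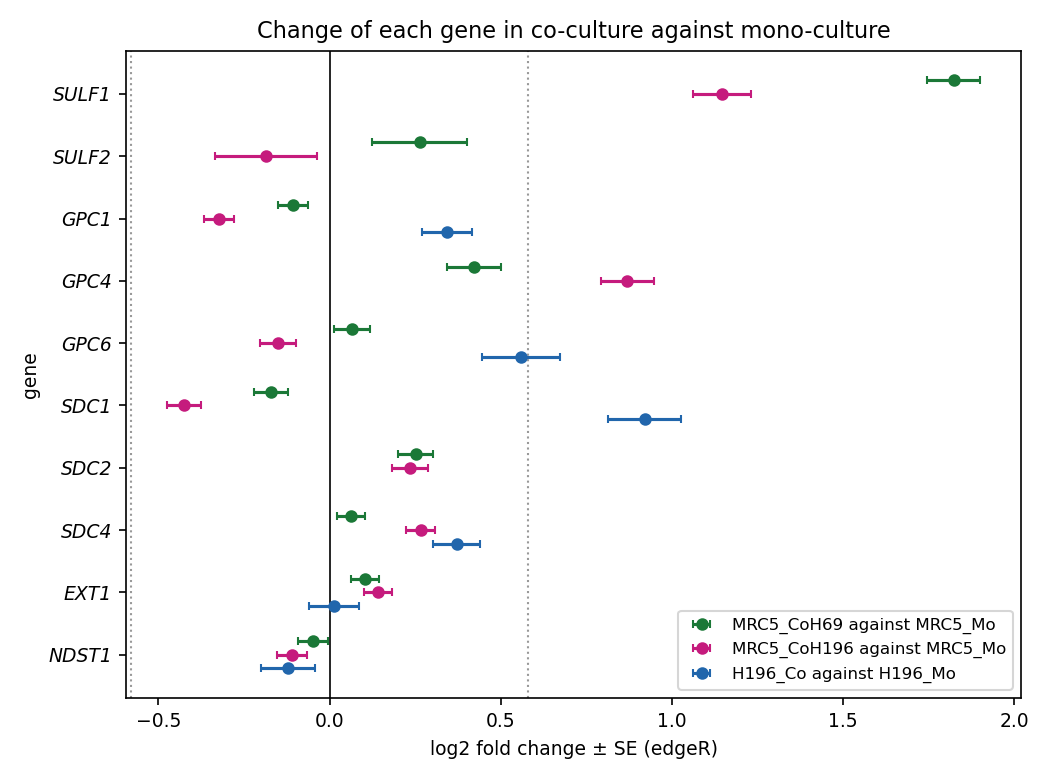
Log2 fold change (horizontal axis, edgeR) of each gene in MRC5_CoH69 and MRC5_CoH196 against MRC5_Mo and in H196_Co against H196_Mo, with bars of 1 SE and dotted lines at the fold limit of 0.58. SULF1 lies farthest to the right with H69 (1.82), and SDC1, GPC1 and GPC6 lie left of 0 in MRC5 with H196 and right of 0 in H196.

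Upstream stretches of 4 core protein genes, chosen after their values were seen, are shown as examples of different patterns: GPC4, higher in MRC5 with H196, SDC1 and GPC1, lower there and higher in H196, and SDC4, with positive fold changes in both. They are the 250 bases before the RefSeq start site (GRCh38.p14), 5′ to 3′ on the strand of the gene. Capitals mark matches to the GC box GGGCGG on either strand, a motif of many promoters without a TATA box.
GPC4, chrX:133415490-133415739, minus strand: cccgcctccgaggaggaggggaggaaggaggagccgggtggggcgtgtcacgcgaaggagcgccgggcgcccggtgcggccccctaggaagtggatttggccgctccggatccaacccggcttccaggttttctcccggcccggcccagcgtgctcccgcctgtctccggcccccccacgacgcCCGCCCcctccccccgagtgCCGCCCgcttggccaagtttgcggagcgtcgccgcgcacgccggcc
SDC1, chr2:20225476-20225725, minus strand: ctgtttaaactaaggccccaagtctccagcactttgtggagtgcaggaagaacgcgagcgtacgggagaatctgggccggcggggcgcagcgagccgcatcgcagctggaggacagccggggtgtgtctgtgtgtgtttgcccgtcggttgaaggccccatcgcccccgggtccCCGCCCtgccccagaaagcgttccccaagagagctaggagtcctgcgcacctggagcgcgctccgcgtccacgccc
GPC1, chr2:240435413-240435662, plus strand: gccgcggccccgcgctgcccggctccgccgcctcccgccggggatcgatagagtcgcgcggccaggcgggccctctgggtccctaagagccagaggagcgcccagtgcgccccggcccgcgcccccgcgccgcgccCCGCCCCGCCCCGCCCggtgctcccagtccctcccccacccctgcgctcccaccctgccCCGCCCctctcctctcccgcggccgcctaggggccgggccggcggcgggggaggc
SDC4, chr20:45348425-45348674, minus strand: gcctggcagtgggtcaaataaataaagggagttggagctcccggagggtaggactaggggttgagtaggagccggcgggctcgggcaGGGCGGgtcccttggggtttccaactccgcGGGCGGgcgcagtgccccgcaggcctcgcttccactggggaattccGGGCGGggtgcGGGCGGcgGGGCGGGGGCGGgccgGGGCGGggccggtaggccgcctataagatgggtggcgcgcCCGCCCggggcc

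The GC box had 8 matches before SDC4, 4 before GPC1, of which neighbours overlap by 1 base, 2 before GPC4 and 1 before SDC1. It occurs at least once in 42.6% of the 35116 RefSeq stretches of this length. TATAAA was found before none of the 4, and occurs in 10.7% of the stretches. GPC6, not printed, had 0 GC boxes and 1 TATAAA. The share of G and C was 84% for GPC1, 76% for GPC4, 73.6% for SDC4 and 66.4% for SDC1. No assay of these promoters was analysed here.

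Taken as a pool, the transcripts of 14 heparan sulfate core proteins summed to 674 ± 5 FPKM (SD, n = 3) in MRC5_Mo, 667 ± 17 in MRC5_CoH69 and 606 ± 1 in MRC5_CoH196. The lower sum with H196 depends on the scale, since the median of all genes was -0.18 there on log2(FPKM + 0.1) and the 12 tested core proteins had a median log2 fold change of 0.23 on the TMM scale. The shares within the pool do not depend on it. GPC1 made up 27.9 ± 0.7% of this pool in MRC5_Mo, 25.9 ± 0.7% in MRC5_CoH69 and 22.0 ± 0.3% in MRC5_CoH196. The SDC4 share went from 19.1 ± 0.6% to 19.98 ± 0.75% and 22.6 ± 0.7%, so that it was ahead of GPC1 in MRC5_CoH196. SDC1 held 6.14 ± 0.27%, 5.46 ± 0.26% and 4.51 ± 0.09%, and GPC4 0.548 ± 0.063%, 0.736 ± 0.023% and 0.990 ± 0.058%.

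The H196 pool of 13 listed core proteins was smaller and differently composed. It summed to 140 ± 5 FPKM (SD, n = 3) in H196_Mo and 167 ± 10 in H196_Co. SDC4 led with 31.4 ± 1.2% and 32.5 ± 1.9%, followed by COL18A1, a basement membrane collagen that carries heparan sulfate, with 20.5 ± 0.7% and 17.7 ± 0.2%. SDC1 took 1.89 ± 0.11% alone and 2.86 ± 0.16% in co-culture.

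**Figure D4:**
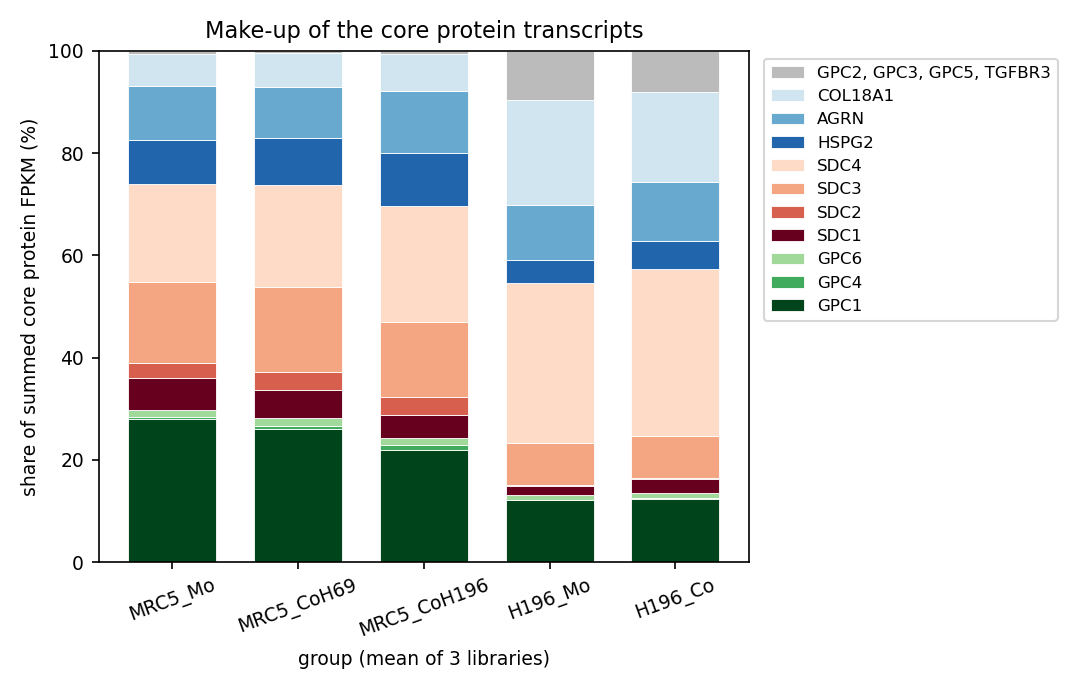
Share of each core protein gene in the summed FPKM of the core proteins (vertical axis, percent), as stacked bars of group means over 3 libraries. In MRC5 the GPC1 share is lowest and the SDC4 share highest with H196 as partner, and in H196 SDC4 holds 31.4% to 32.5%.

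The rest of the pathway was followed with 7 lists of genes that make, carry, edit or break down heparan sulfate, which hold 54 genes beyond the 10. In MRC5 41 of these were tested. With H69 as partner edgeR called 0 of the 41 (DESeq2 0, and 6 at an unadjusted p under 0.05), where 0.421% of all tested genes rose and 0.133% fell, so a count of 0 is near the background. With H196 as partner 4 of the 41 rose and 2 fell, against 17.2% and 14.7% of all genes. The median absolute log2 fold change of the 41 was 0.06 with H69 and 0.28 with H196, beside 0.08 and 0.39 over all genes.

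With H196 as partner 3 of the 7 tested chain modification genes rose, against 17.2% of all tested genes. HS6ST1, the sulfotransferase that adds the 6-O-sulfate groups SULF1 removes, was at 42.6, 42.7 and 43.1 FPKM in MRC5_Mo, 42.3, 40.7 and 40.6 in MRC5_CoH69 and 70.4, 64.8 and 68.9 in MRC5_CoH196. MRC5_CoH196 stood far above the other groups, with a 1.79-fold rise (log2 fold change 0.84, SE 0.04, adjusted p = 1.2e-14). With H69 the value was -0.04 (SE 0.05, adjusted p = 0.68). Set against each other, MRC5_CoH69 lay -0.88 from MRC5_CoH196 (SE 0.04, adjusted p = 6.1e-15). H196 cells had 4.42 to 5.38 FPKM of HS6ST1, below every MRC5 library.

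SULF1 and HS6ST1, which act on the same sulfate group in opposite directions, were therefore highest in different co-cultures. The SULF1 to HS6ST1 ratio of FPKM was 0.0762 ± 0.0113 (SD, n = 3) in MRC5_Mo, 0.275 ± 0.020 in MRC5_CoH69 and 0.0946 ± 0.0028 in MRC5_CoH196. The lowest MRC5_CoH196 library, at 0.0923, lay above the highest MRC5_Mo library, at 0.0833, and well below the 0.252 to 0.286 of MRC5_CoH69. SULF1 was chosen for its difference, so this ratio is a description.

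HS3ST3A1 and HS3ST3B1, paralogous 3-O-sulfotransferases of a late and rare modification, also rose with H196. HS3ST3A1 went from 4.54, 4.46 and 4.81 FPKM in MRC5_Mo to 6.68, 6.20 and 6.02 in MRC5_CoH196 (log2 fold change 0.60, SE 0.07, adjusted p = 1.5e-08). In MRC5_CoH69 it was at 3.58, 3.47 and 3.69, below MRC5_Mo (-0.36, SE 0.07, adjusted p = 0.0028). Its rise with H196 lies close to the fold limit. It was under that limit without MRC5_Mo replicate 2 (0.58) or MRC5_CoH196 replicate 1 (0.55). HS3ST3B1 was at 3.20, 3.47 and 3.12 FPKM in MRC5_Mo, 3.26, 2.92 and 3.87 in MRC5_CoH69 and 4.24, 4.75 and 4.58 in MRC5_CoH196 (0.64, SE 0.08, adjusted p = 1.2e-07, with H196). On the log2(FPKM) scales both values with H196 were under the limit, at 0.37 to 0.46. Reads of these similar genes may have been split between them in counting.

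Of the 7 linker genes, which build the sugar stem between core protein and chain, 0 rose and 1 fell with H196. That was B3GALT6, a galactosyltransferase, at 18.7, 18.7 and 18.3 FPKM in MRC5_Mo, 18.5, 18.4 and 20.2 in MRC5_CoH69 and 10.8, 11.3 and 10.3 in MRC5_CoH196 (log2 fold change -0.61, SE 0.06, adjusted p = 3.7e-10). The linker is shared with chondroitin sulfate. Of the 10 precursor supply genes 1 rose and 1 fell. SLC35D1, a transporter of UDP-sugars, fell from 8.23, 8.35 and 8.48 FPKM in MRC5_Mo to 4.52, 5.19 and 4.43 in MRC5_CoH196 (-0.65, SE 0.06, adjusted p = 3.5e-10). SLC35A3, a transporter of UDP-N-acetylglucosamine, rose from 3.73, 3.69 and 3.51 to 4.66, 5.80 and 5.18 (0.66, SE 0.07, adjusted p = 9.7e-09), and was under the limit on log2(FPKM + 1) (0.42) and log2(FPKM + 0.1) (0.50). Their FPKM with H69 was 8.52 to 9.31 and 3.76 to 4.19, and neither was a DEG there.

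Between the co-cultures, 5 of the 41 other pathway genes were DEGs. These were 2 higher and 3 lower with H69, against 13.1% and 15.2% of all tested genes. B3GALT6 (log2 fold change 0.66) and SLC35D1 (0.75) were higher with H69, and HS6ST1 (-0.88), HS3ST3A1 (-0.96) and HS3ST3B1 (-0.59) were lower, with adjusted p from 7.4e-12 for HS3ST3A1 and 4.7e-07 for HS3ST3B1. The median log2 fold change of the 41 was 0.02, beside 0.01 over all genes.

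In the 5 polymerisation genes, the 8 genes of lysosomal breakdown and the tested editing gene other than SULF1, no call was made in any MRC5 comparison. Over all tested genes 0.421% rose and 0.133% fell with H69, 17.2% and 14.7% with H196, and 13.1% and 15.2% were higher and lower between the co-cultures. The tested core proteins gave GPC4 as a single DEG among 12 with H196, with an adjusted p under 0.05 for all 12 and a median log2 fold change of 0.23. Of all tested genes 74.3% had an adjusted p under 0.05 with H196.

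Against 3.26% and 0.601% of all tested genes, in H196 1 of the 40 tested other pathway genes rose and 0 fell. This was HSPG2, or perlecan, a large basement membrane proteoglycan, at 5.93 to 6.60 FPKM in H196_Mo and 7.41 to 10.1 in H196_Co (log2 fold change 0.60, SE 0.09, adjusted p = 1.4e-04), with one co-cultured library nearer to H196_Mo than the other two. It was under the fold limit without H196_Mo replicate 1 (0.54), H196_Co replicate 2 (0.54) or H196_Co replicate 3 (0.53). On log2(FPKM + 1) and log2(FPKM + 0.1) HSPG2 was also under the limit, at 0.46 and 0.51. Of the 10 core proteins tested in H196 2 rose, SDC1 and HSPG2, and 8 had an adjusted p under 0.05, against 3.26% and 19.8% of all tested genes, with a median log2 fold change of 0.36.

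In the joint fit of both lines, 2 of 42 other pathway genes were called higher in the MRC5 response and 3 lower. Over all tested genes these shares were 12.2% and 12.3%. DESeq2 called 2 of the 42. HS6ST1 (0.67, SE 0.11, adjusted p = 1.0e-05) and SLC35A3 (0.74, SE 0.14, adjusted p = 5.6e-05) differed upward. SGSH, a lysosomal sulfatase, differed by -0.61 (SE 0.10, adjusted p = 9.8e-06), close to the limit and under it by DESeq2 (-0.56), with either other filter on low counts (-0.57 and -0.58) and without H196_Mo replicate 1 (-0.56) or any one library of MRC5_Mo or MRC5_CoH196 (-0.58 to -0.54). HPSE, the heparanase that cuts the chain, differed by -1.26 (SE 0.48, adjusted p = 0.029). HPSE had 4 counts in each MRC5_CoH196 library and 8 to 13 in MRC5_Mo, against 94 to 132 in H196, and is not a call by DESeq2 or without MRC5_Mo replicate 1 (-0.95) or any one MRC5_CoH196 library. XYLT1, the xylosyltransferase that starts the linker, was the remaining call, but it held at most 2 counts in any H196 library, so no fold is given.

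**Figure D5:**
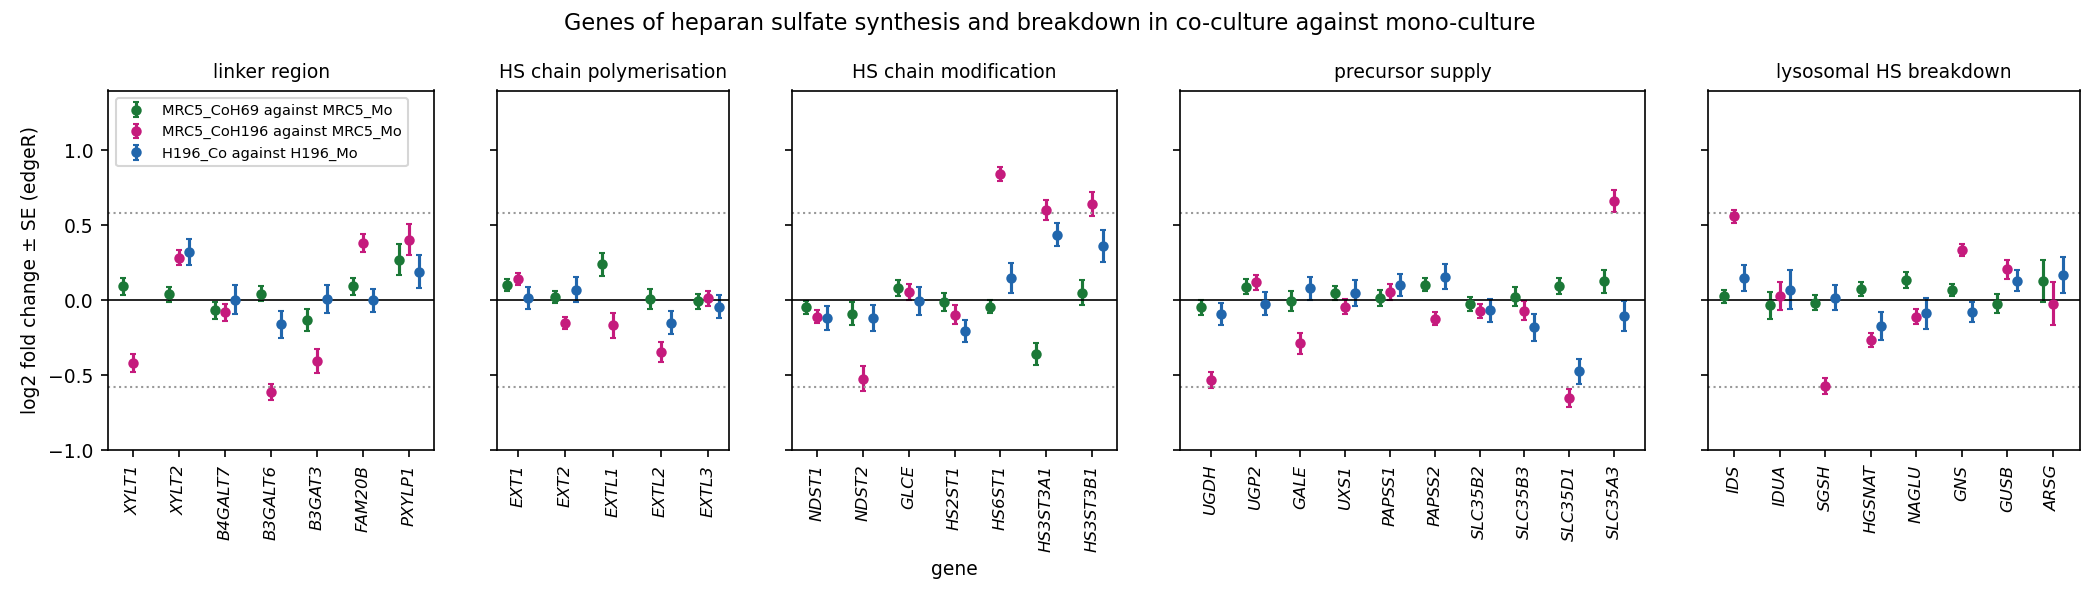
Log2 fold change (vertical axis, edgeR, bars of 1 SE) of the pathway genes tested in MRC5, grouped by the step they serve, for both MRC5 co-cultures and H196_Co against the mono-cultures, with dotted lines at the fold limit. With H196 as partner, HS6ST1 (0.84), HS3ST3A1, HS3ST3B1 and SLC35A3 lie above the upper line and B3GALT6 and SLC35D1 (-0.65) below the lower one, and no gene passes with H69.

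Chondroitin and dermatan sulfate chains share the linker and precursors with heparan sulfate. The counts of this and the following lists stand beside the shares of all tested genes that rose and fell, 0.421% and 0.133% with H69, 17.2% and 14.7% with H196, 13.1% and 15.2% between the co-cultures, 3.26% and 0.601% in H196 and 12.2% and 12.3% in the joint fit. Of 14 tested genes 0 were DEGs with H69, and 3 rose and 3 fell with H196, with a median log2 fold change of -0.26. Between the co-cultures 4 were higher and 3 lower with H69, in H196 1 of 15 rose and 1 fell, and in the joint fit 2 were higher and 2 lower. Named after their values were seen, CSGALNACT2, which starts the chondroitin chain, rose in MRC5_CoH196 (1.25, SE 0.06, adjusted p = 5.5e-16) and DSEL, an epimerase that makes dermatan sulfate, fell (-1.17, SE 0.04, adjusted p = 1.4e-17). DSEL also fell in H196_Co (-1.04, SE 0.11, adjusted p = 6.4e-07).

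FGF signalling depends on heparan sulfate as a coreceptor, and its feedback genes were followed beside the set. Of 12 FGF and ERK feedback genes 0 were DEGs in MRC5_CoH69, and 5 rose and 0 fell in MRC5_CoH196, with a median log2 fold change of 0.47. Between the co-cultures 6 were lower with H69, in H196 1 of 11 rose, and in the joint fit 4 of 12 were higher. Also named after their values were seen, SPRY1, an inhibitor of the pathway, rose 3.93-fold with H196 (log2 fold change 1.98, SE 0.17, adjusted p = 9.6e-11) and DUSP5, an ERK phosphatase, 2.77-fold (1.47, SE 0.08, adjusted p = 7.4e-15).

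Of the 10 Wnt feedback genes 4 were tested in MRC5, with 0 DEGs with H69, 1 fallen with H196 and 1 higher with H69 than with H196. In H196 8 were tested and 4 rose, and in the joint fit 0 of 8 were called. Fibroblast markers gave 0 of 10 with H69, 1 risen and 2 fallen with H196, 3 higher with H69 than with H196, 0 of 4 in H196 and 1 of 9 lower in the joint fit. Epithelial markers gave 0 of 6 with H69, 4 risen with H196, 1 higher and 4 lower between the co-cultures, 1 of 5 risen in H196 and 2 of 7 higher in the joint fit. Neuroendocrine markers gave no call, with 2 tested in MRC5 and 4 in H196 and in the joint fit. For the lists with no call, unadjusted p-values under 0.05 were found for 30 of 98 genes with H69, 10 of 16 with H196, 22 of 28 between the co-cultures, 6 of 44 in H196 and 5 of 17 in the joint fit, and DESeq2 called 0 of them in each comparison.

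Over the 9 MRC5 libraries, the genes whose log2 CPM followed SULF1 most closely among 9226 genes with a mean of at least 10 CPM were LXN (Pearson r 0.992), COL4A1 (0.989), CRISPLD2 (0.989), RFTN1 (0.982) and OLR1 (0.976). The 9 points share 3 groups, so r mostly restates the order of the group levels. LXN, a carboxypeptidase inhibitor, was at 19.9 to 23 FPKM in MRC5_Mo, 42.9 to 49.7 in MRC5_CoH69 and 27.5 to 32.4 in MRC5_CoH196. COL4A1, a basement membrane collagen, was at 194 to 214, 302 to 309 and 243 to 252. CRISPLD2, a secreted protein, was at 22.6 to 24.5, 36.0 to 37.6 and 27.7 to 30.1. Each of these 3 had the order of SULF1 with no overlap, at smaller log2 fold changes of 1.07, 0.58 and 0.66 with H69. RFTN1 and OLR1 overlapped between MRC5_Mo and MRC5_CoH196. RFTN1 was at 30.6 to 32.9 and 31.9 to 32.7 FPKM there, and OLR1 at 7.58 to 8.52 and 8.45 to 8.88. The genes were picked for their likeness to SULF1, so a shared order is built in. Of the ranked genes of the set SDC2 came nearest, with r of 0.87 and rank 44, and SDC1 was farthest, with r of -0.51. SULF2, with group means of 4.66 to 6.36 CPM in MRC5, was under the limit of 10 CPM and was not ranked.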

How the data were processed

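The authors cleaned reads of poly(A) RNA (BGIseq-500) with SOAPnuke, aligned them to GRCh38.p13 and to reference genes, and deposited 1 table per cell line. Per the labels the tools were HISAT, HISAT2 2.1.0, Bowtie2 2.3.4.3 and RSEM 1.3.1. Of the deposited expected counts, which can split reads between genes, 93.7% were whole in MRC5 and 92.1% in H196. FPKM was computed by the authors with each table normalized separately. Their TPM and normalized counts (18 and 12 columns), fold changes and p-values were not used.

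Expected counts were rounded and fitted in R 4.3.3 with edgeR 4.0.16 quasi-likelihood models (TMM, filterByExpr), over the 9 MRC5 libraries, the 6 H196 libraries, and for the difference of responses 12 libraries of both lines together. Tests were two-sided and adjusted by Benjamini-Hochberg over all tested genes. An exact permutation test of 3 against 3 libraries cannot go below p = 0.1 and was not run. DESeq2 1.42.0, limma 3.58.1 on log2 values of FPKM with 1 or 0.1 added, other filters on low counts, size factors, fold limits, only the 2 groups compared, a replicate block and leaving out each library were alternatives. On data simulated for MRC5_CoH69 against MRC5_Mo, with 200 changed genes of 12741, edgeR recovered 199 with 4 false calls. In H196 it recovered 200 of 200 among 12768 genes with 3 false calls, and in the joint fit 198 among 13361 with 9. The planted log2 changes were 1 or 2 in size, so these figures do not cover smaller changes, such as those near the fold limit.

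The genes and lists were chosen with earlier results of these data known. All 10 genes are reported, with the DEGs of the 7 heparan sulfate lists, the values of at most the 3 largest per list and comparison, and the 5 genes most like SULF1. Promoters (RefSeq, GRCh38.p14) matched 7 of the 10 genes. Python 3.11.15 was used for tables.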

Additional observations from a re-analysis of the deposited data

Results flagged for a closer look

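Over all tested genes, 3618 of 12819 were called between the co-cultures and 3319 of 13531 in the joint fit. Differences between responses passed the test of the difference itself for these genes. Between MRC5_CoH69 and MRC5_CoH196 (log2, edgeR), these were B3GALT6 (0.66), SLC35D1 (0.75), HS6ST1 (-0.88), HS3ST3A1 (-0.96) and HS3ST3B1 (-0.59). Between the response of MRC5 to H196 and that of H196 to MRC5, these were GPC1 (-0.69), GPC6 (-0.73), SDC1 (-1.37), HPSE (-1.26), HS6ST1 (0.67), SLC35A3 (0.74) and SGSH (-0.61). Of these, HPSE and SGSH were not called by DESeq2 or without some of the libraries, and HS3ST3B1 not on the FPKM scales or without some of the libraries. SULF1 was left out because it was chosen for such a difference, and XYLT1 because it was at or under 3 counts in H196. The groups of 3 libraries were too small for a search for outlying libraries.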

How the results depend on the processing

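SULF1, chosen for its values in MRC5, was at 1.54 with H69 and 0.81 with H196 on log2(FPKM + 1), and 0.80 between the co-cultures on log2(FPKM + 0.1). With no fold limit the set without SULF1 held 3 DEGs with H69, 8 with H196, 6 between the co-cultures and 4 in H196, and all genes 859, 9522, 9269, 2538 and, in the joint fit, 6757. With a limit of 1 it held 0 with H196, 0 in H196 and 1 in the joint fit, and all genes 9, 1564, 1353, 147 and 1240. On log2(FPKM + 0.1) it held 2 with H196 and 1 between the co-cultures. Over all genes DESeq2 called 44 with H69, log2(FPKM + 1) 18 there and 195 in H196, against 71 and 494.

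Leaving out 1 library left the counts for the set at 0, 1, 0, 1 and 3, and those of all genes at 48 to 85, 3961 to 4147, 3505 to 3655, 424 to 517 and 3156 to 3510. The fits with a replicate block gave 0, 1, 0, 1 and 3 and 70, 4088, 3612, 471 and 3303. Same-numbered libraries did not deviate together (correlations from -0.15 to 0.081). The labels do not say whether the numbers pair libraries, and this check cannot decide it.

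On log2(FPKM + 1) and log2(FPKM + 0.1) the split of calls moved: with H196 915 higher and 2082 lower, and 1437 and 2869, against 2207 and 1885; between the co-cultures 1746 and 821, and 2567 and 1281, against 1675 and 1943; in the joint fit 819 and 1558, and 1327 and 2170, against 1648 and 1671. With H69 they were 17 and 1 on log2(FPKM + 1), against 54 and 17, and in H196 306 and 111 on log2(FPKM + 0.1), against 417 and 77. The median of all genes moved to -0.13 and -0.18 with H196 and to 0.14 and 0.18 between the co-cultures.

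Some signs turned. EXT1 was -0.032 and -0.032 with H196, 0.12 and 0.12 between the co-cultures (limma adjusted p = 0.021 and 0.022) and -0.055 and -0.062 in H196 on the 2 FPKM scales, and -0.017 to 0.056 in H196 with 1 library left out. With 1 library left out, SULF2 with H196 was -0.34 to 0.018 (the latter without MRC5_Mo replicate 1) and SDC2 between the co-cultures -0.011 (without MRC5_CoH196 replicate 1) to 0.044. In the joint fit GPC4 was 0.50 (limma adjusted p = 6.2e-04) and 0.25 on the FPKM scales and -0.46 to 0.0052 with 1 library left out, the latter without MRC5_Mo replicate 1. SDC2 was -0.00065 on log2(FPKM + 0.1) and -0.26 to 0.32 with 1 library left out. NDST1 was 0.038 with DESeq2 size factors and its test, 0.031 with no filter, 0.022 with at least 10 counts per library and -0.11 to 0.078 with 1 library left out. GPC4 with H196 was 0.578 and not called on log2(FPKM + 1), and GPC6 -0.56 in the joint fit. HS3ST3B1 between the co-cultures was under the limit without MRC5_CoH69 replicate 1 (-0.58) or 2 (-0.51) or MRC5_CoH196 replicate 2 (-0.57). The cause was not tested. Depth limits SULF1, GPC4 and SDC2 in H196 and HPSE in MRC5, which hold few counts.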
